A study of Homo sapiens with 8 samples.

Results

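Keratins are the intermediate filament proteins of epithelial cells, and the 55 keratin genes of the array were chosen by name, as every gene whose symbol on the array is KRT followed by a number and at most a letter from A to C. They are 55 of 43317 gene names and are measured by 64 of 58201 probes. Of these genes, 27 lie on chromosome 12 and 28 on chromosome 17, and all 55 symbols were found in the RefSeq gene table (GRCh38.p14).

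Gene expression was measured in 5 human cancer cell lines on 8 Agilent 60K arrays with a dye for each of 2 channels. Each array set mock cells of a line, left without transfection and labelled with Cy3, against cells of the same line that had taken up an siRNA or a miRNA through Lipofectamine RNAiMAX and were labelled with Cy5. The dyes were not swapped, all 8 arrays were on 1 slide, and no spot was saturated. The labels give PC3 as prostate cancer (si-PIR-2 and si-PIR-3, siRNAs against PIR, with 1 array each), SK-MES-1 as lung squamous cell carcinoma (miR-144-5p and miR-144-3p, 1 array each), SW1990 as pancreatic cancer (miR-204-5p), MDA-MB-231 as breast cancer (miR-204-5p), and PANC1 as pancreatic cancer (miR-130-5p and miR-130-3p, 1 array each). The labels do not say whether the arrays of a line used separate mock cultures, so the mock cells were counted as 1 sample per line and levels in mock cells were described without a test. A cell line is a single established culture, and cell line and array cannot be told apart where a line has only 1 array (SW1990 and MDA-MB-231).

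Keratin proteins come in 2 types that pair with each other to form a filament, an acidic type I chain with a basic type II chain. KRT8 and KRT18 are the pair of simple epithelia such as glands and ducts, often joined there by KRT7 and KRT19. KRT5 and KRT14 are the pair of the basal layer of stratified epithelia, and KRT6A, KRT6B, KRT6C, KRT16 and KRT17 are made by stratified epithelia in wounds and in squamous tumours. KRT1 and KRT10 mark the layers above, and other members build hair and its inner root sheath. The genes of most type I chains are clustered on chromosome 17 and those of the type II chains, with KRT18, on chromosome 12.

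The bases just before the transcription start were read for the keratins listed in the RefSeq promoter table (GRCh38.p14), which held 34 of the 55 genes. The windows below run from 40 to 11 bases before the start, 5′ to 3′ on the strand of the gene, and capitals mark the letters ATAAA, which were chosen after the windows had been read. They are shown for some of the keratins well above background in mock cells of 1 line only (KRT5 in SW1990, KRT75, KRT37 and KRT20 in PC3). Also shown are KRT34, which was so in 2 lines, and KRT10 and KRT8, which were so in all 5 lines.
KRT5 (chr12:52520405-52520434, minus strand): ttctggaagggATAAAaagggggcatcacc
KRT75 (chr12:52434382-52434411, minus strand): aggatgctcATAAAagccacgagaccaggg
KRT37 (chr17:41424596-41424625, minus strand): caggatggggtATAAAagggttgggaggag
KRT20 (chr17:40885253-40885282, minus strand): cctgtggacttcATAAAaggctagctcaac
KRT34 (chr17:41382317-41382346, minus strand): aattaatggtATAAAaggactgcagaggaa
KRT10 (chr17:40822625-40822654, minus strand): ccctctcagtatATAAAggcttgtcactgt
KRT8 (chr12:52926480-52926509, minus strand): ggggcaggctttgtggggaggtgcctgatg
ATAAA was present on the strand of the gene in 24 of the 34 keratin windows (70.6%), against 1431 of 27305 windows of all promoters (5.24%). On the opposite strand it was present in 1 keratin window (2.94%) and in 2.51% of all. It was present in 9 of the 15 windows of keratins detected in mock cells and in 15 of the 19 windows of keratins that were not. Of the windows shown, that of KRT8 did not hold these letters. Neither did those of KRT39 and KRT4, which were detected in 1 line only and are not shown.

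The level of a gene in mock cells is given as log2 of the Cy3 processed signal minus the 75th percentile of the array, so that a difference of 1 is 2-fold and 0 is the level of a bright gene. Levels compare the same probe between lines, not one gene with another. The targeted gene PIR, a check of the labels, had a log2 ratio of transfected over mock cells of -5.46 with si-PIR-2 and -4.27 with si-PIR-3, and of -1.60 to 0.05 on the other 6 arrays. The labelled tissues were checked against marker lists. In PC3, HOXB13, a homeobox factor of the prostate, was at 4.31, while KLK3, which encodes the prostate-specific antigen, was not well above background in any line. In SK-MES-1, 4 of 6 squamous markers were detected (45.7% of all genes), against 3 in SW1990, 2 each in PC3 and MDA-MB-231 and 0 in PANC1. Of the 4, TP63 and SOX2 were highest in SK-MES-1, and PKP1 and SERPINB5 in PC3. TP63, the master factor of squamous epithelium, was dim in SK-MES-1 at -5.23, and DSG3 was not well above background. Pancreatic duct markers were detected in every line, at 6 or 7 of 7, and the breast markers at 4 or 5 of 7. The epithelial markers CDH1 (E-cadherin) and RAB25 were brightest in SW1990, at 1.27 and -0.45, while CDH1 was not well above background in SK-MES-1 or PANC1. Of 4 haematopoietic markers on the array, 2 were detected, at -5.22 or below in every line.

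In mock cells, 31 of the 55 keratins (56.4%) were detected in at least 1 line, where detected means that a probe of the gene was well above background on every array of the line. Among all genes, 53.8% were detected in at least 1 line. SW1990 had the most keratins, 26 of 55, against 44.1% of all genes detected in that line. PC3 had 22 (44.2% of all genes), MDA-MB-231 had 20 (44.9%), SK-MES-1 had 18 (45.7%) and PANC1 had 16 (41.9%). A set of 15 keratins (27.3%) was detected in all 5 lines, against 36% of all genes, and 24 were detected in none.

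Many keratins differed between lines. Of the 31 detected, 10 were detected in exactly 1 line (32.3%), against 11.9% of all genes detected. The rule asks for every array of a line, so it is stricter for lines with 2 arrays. Among the 10, KRT16, KRT39 and KRT4 were also well above background on 1 SK-MES-1 array, and KRT4 on 1 PC3 array. The highest line was more than 4-fold above the lowest for 18 of 31 (58.1%), against 29.9% of 23223 genes, and the median distance between highest and lowest line was 2.35 on the log2 scale, against 1.38 for all genes. SW1990 was the highest line, by more than 4-fold over the lowest, for 11 of the 31 (35.5%), against 6.21% of all genes. PC3 was so for 4 keratins (12.9%), against 5.09%, and MDA-MB-231 for 3 (9.68%), against 3.89%. SK-MES-1 and PANC1 were so for 0 keratins, against 9.13% and 5.62% of all genes. SW1990 exceeded the next line itself by more than 4-fold for 6 keratins (19.4%), against 1.49%, and PC3 did so for 3 (9.68%), against 1.09%. The other lines did so for 0, against 2.1% in SK-MES-1, 0.577% in MDA-MB-231 and 0.99% in PANC1. These are counts over 1 mock sample per line, and they carry no test.

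**Figure D1:**
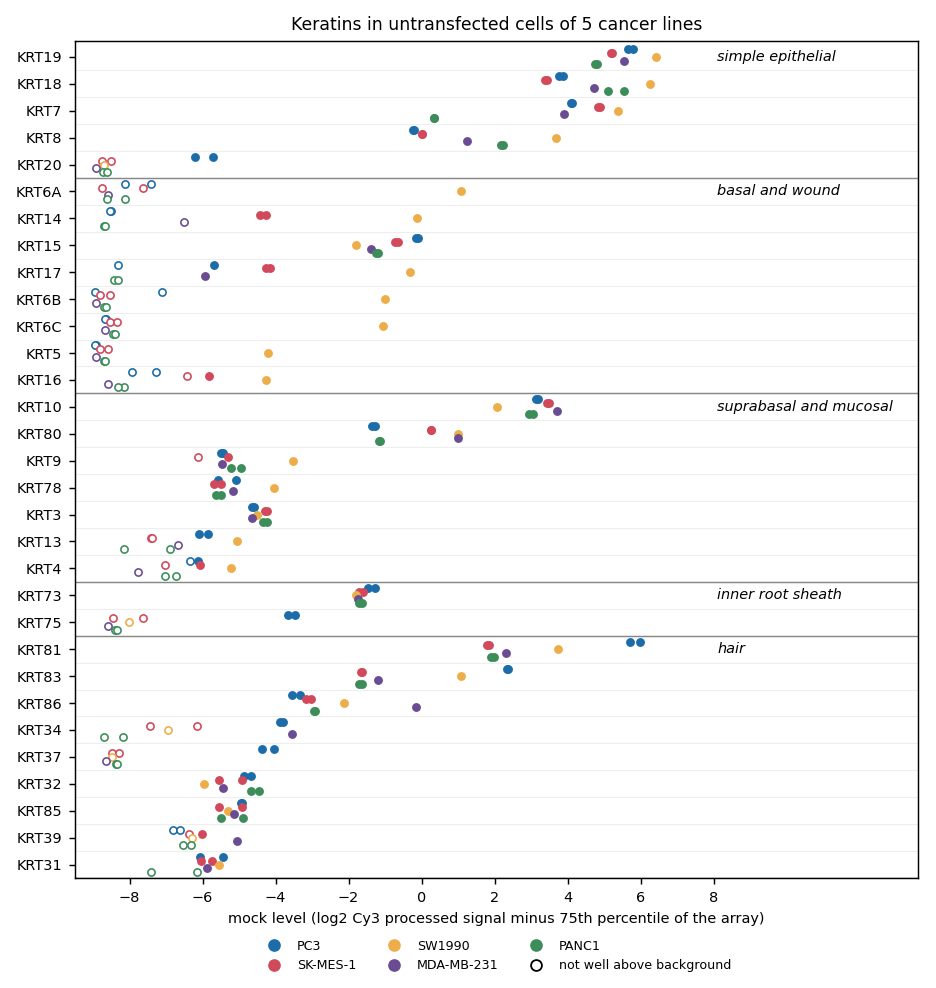
Level in mock cells (x axis, log2 Cy3 processed signal minus the 75th percentile of the array) of the 31 keratins detected in at least 1 line, grouped by role. Each point is 1 array, coloured by cell line, and open points are not well above background. Most of the basal and wound keratins stand apart in SW1990, KRT81 and KRT83 in PC3, and KRT86 in MDA-MB-231.

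The pair of arrays of a line measured how far mock levels moved between arrays. Over all probes well above background on both arrays, the SD of the difference in level was 0.202 in PC3, 0.189 in SK-MES-1 and 0.183 in PANC1. For the keratins the median absolute difference was 0.111, 0.067 and 0.0818 in these lines, and the largest was 0.627. This spread includes that of hybridisation. The labels do not say whether it also covers a difference between mock cultures. In RNA of bulk cells, fewer cells that express a gene and less RNA per cell cannot be told apart.

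The basal and wound keratins had the widest differences of the 5 role groups, with a median range over lines of 5.58 on the log2 scale. All 8 of them were detected in SW1990, 3 in SK-MES-1 (KRT14, KRT15 and KRT17), 2 in MDA-MB-231 (KRT15 and KRT17) and 1 each in PC3 and PANC1 (KRT15). In 7 of the 8 the range over lines passed 4-fold with SW1990 highest. SW1990 is labelled as pancreatic cancer, whereas SK-MES-1, the line labelled as squamous cell carcinoma, did not have the highest level of any of the 8.

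KRT6A, a type II chain of wound epithelium, is measured by a probe to NM_005554 on chromosome 12 of hg19 from 52881087 to 52881146. Its mock level was 1.09 in SW1990 and stayed near background on each of the other 7 arrays, where it lay between -8.76 and -7.41. Against the lowest signal that counted as well above background, SW1990 was at least 172-fold higher than the next line and at least 209-fold higher than MDA-MB-231. KRT6B (NM_005555, chromosome 12 from 52840556 to 52840615) was at -1.0 in SW1990 and KRT6C (NM_173086, chromosome 12 from 52863651 to 52864324) at -1.07, and neither was well above background elsewhere. SW1990 was at least 40.3-fold above the next line for KRT6B and at least 38.5-fold for KRT6C. The sizes of these differences depended on the processing. With normexp and quantile normalisation the log2 range over lines was 4.18 for KRT6A, 2.31 for KRT6B and 2.07 for KRT6C, in place of 7.71, 5.61 and 5.55. Normexp was run here and below with an offset of 50 added to each signal, which by itself narrows differences and ratios of dim genes. The 3 transcripts are closely related, and how far each probe also binds the others was not tested. Set against each other, no probes of different keratins shared more than 17 bases in a row, a length reached by those of KRT33A and KRT33B, and the probes of KRT6C and KRT75 shared 15.

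KRT14, the type I chain of the basal layer, was measured on chromosome 17 from 39740013 to 39740072. Its mock level was -0.11 in SW1990 and -4.26 and -4.43 on the SK-MES-1 arrays, and it was not well above background on the other 5 arrays. SW1990 was 18.7-fold above SK-MES-1 and at least 90.4-fold above PC3. A second KRT14 probe was dimmer and was well above background in SW1990 only, at -6.10. KRT17, a type I chain of wounds and squamous tumours, was at -0.33 in SW1990, at -4.16 and -4.25 in SK-MES-1 and at -5.94 in MDA-MB-231, 14.7-fold lower in SK-MES-1 than in SW1990. With normexp and quantile normalisation the log2 range over lines was 3.11 for KRT14 and 2.62 for KRT17, in place of 6.50 and 6.67, and the mean over both KRT14 probes gave 3.51. In PC3, KRT17 was well above background at -5.68 on the si-PIR-2 array and not on the si-PIR-3 array, at -8.31.

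KRT5, the partner of KRT14, was dim and was well above background only in SW1990, at -4.20, at least 4.39-fold above the next line. KRT16 was at -4.27 in SW1990 and was well above background on 1 of the 2 SK-MES-1 arrays, at -5.82. In both of these dim genes the range over lines was largely lost with normexp and quantile normalisation, at 0.50 for KRT5 and 0.43 for KRT16, in place of 2.42 and 2.35. The offset of 50 weighs most on such dim signals. KRT15 ran the other way within the group. It was detected in all 5 lines, was highest in PC3 at -0.14 and -0.10 and lowest in SW1990 at -1.80, a difference of 3.22-fold.

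**Figure D2:**
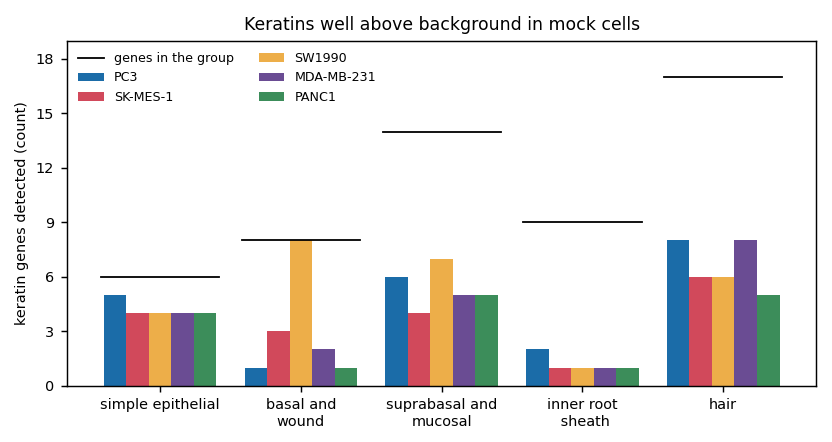
Number of keratin genes detected in mock cells (y axis, count) by role group and cell line. Black lines give the number of genes in each group. All 8 basal and wound keratins were detected in SW1990, while the simple epithelial group had 4 or 5 of 6 in every line.

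The simple epithelial keratins were present in all lines and differed in amount. KRT7, KRT8, KRT18 and KRT19 were detected in all 5 lines, KRT20 in PC3 only, and KRT23 in none. KRT8 (NM_002273, chromosome 12 from 53291026 to 53291085) was at 3.67 in SW1990, at 2.24 and 2.18 in PANC1, at 1.24 in MDA-MB-231, at 0.00 and 0.02 in SK-MES-1 and at -0.21 and -0.24 in PC3. SW1990 was thus 2.75-fold above PANC1 and 14.8-fold above PC3. Its partner KRT18 (NM_000224, chromosome 12 from 53346116 to 53346554) was at 6.25 in SW1990, at 5.53 and 5.10 in PANC1, at 4.72 in MDA-MB-231, at 3.77 and 3.86 in PC3 and at 3.38 and 3.44 in SK-MES-1, with SW1990 7.19-fold above SK-MES-1. Both partners were therefore highest in SW1990, followed by PANC1 and MDA-MB-231, and only the order of PC3 and SK-MES-1 differed.

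The other probes of these genes gave the same line as highest. The second KRT18 probe was at 4.86 in SW1990 and at 1.23 and 1.28 in SK-MES-1. A dimmer KRT8 probe was at -1.08 in SW1990, at -2.19 and -2.35 in PANC1 and at -5.37 and -5.21 in PC3. A further probe that the array names KRT8 was designed to NR_045962 and lies closer to KRT18, and it ranged only from -1.56 in PC3 to -0.42 in SW1990. With the mean over its probes, the log2 range of KRT8 was 3.08 in place of 3.89. The brightest KRT8 probe, like those of KRT80, KRT86 and KRT4, holds a run of GGGG, as did 11.47% of all probes on the array.

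KRT7, a type II chain of ducts and glands, set PANC1 apart. Its mock level was 0.33 on both PANC1 arrays, against 5.38 in SW1990, 4.88 and 4.83 in SK-MES-1, 4.08 and 4.12 in PC3 and 3.90 in MDA-MB-231. SW1990 exceeded PANC1, also labelled as pancreatic cancer, 33.2-fold, and was 1.44-fold above SK-MES-1, the next line. KRT19, the smallest keratin and a type I chain of ducts, varied least among these 4 genes. It was at 6.43 in SW1990, at 5.65 and 5.78 in PC3, at 5.55 in MDA-MB-231, at 5.20 and 5.17 in SK-MES-1 and at 4.82 and 4.74 in PANC1, a range of 3.14-fold. KRT20, a type I chain known from intestinal epithelium, was at -6.20 and -5.73 in PC3 and was not well above background elsewhere, which bounds the difference only at 1.30-fold or more over the next line.

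Some hair keratins were bright in these lines, above all in PC3. Of 17 hair keratins, 9 were detected in at least 1 line, against 53.8% of all genes. There were 8 in PC3 (44.2% of all genes) and in MDA-MB-231 (44.9%), 6 in SK-MES-1 (45.7%) and in SW1990 (44.1%), and 5 in PANC1 (41.9%). KRT81, a type II chain of hair (NM_002281, chromosome 12 from 52679697 to 52679756), was at 5.70 and 5.99 in PC3, at 3.75 in SW1990, at 2.30 in MDA-MB-231, at 1.99 and 1.91 in PANC1 and at 1.78 and 1.83 in SK-MES-1. PC3 was 4.29-fold above SW1990 and 16.4-fold above SK-MES-1. KRT83 (NM_002282, chromosome 12 from 52709702 to 52709761) was at 2.36 and 2.33 in PC3, at 1.07 in SW1990, at -1.20 in MDA-MB-231, at -1.62 and -1.70 in PANC1 and at -1.65 and -1.67 in SK-MES-1, with PC3 16.1-fold above PANC1. A second KRT83 probe also had PC3 highest, at 0.52 and 0.44, with SW1990 at -2.37 and MDA-MB-231 at -4.29, and was not well above background in SK-MES-1 or PANC1. The mean over both probes gave a log2 range of 6.4, in place of 4.01.

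KRT86, the neighbour of KRT81 and KRT83 in the same cluster (NM_002284, chromosome 12 from 52702840 to 52702897), had another order. It was highest in MDA-MB-231 at -0.16, followed by SW1990 at -2.14, and was lowest in PC3 at -3.54 and -3.33, 9.66-fold below MDA-MB-231, a log2 range of 3.27 that was 2.12 with normexp and quantile normalisation. KRT81, KRT83 and KRT86 are close relatives, and binding of one transcript to the probe of another was not tested. The next genes were singled out after their values had been seen. KRT34, a type I hair keratin, was detected in MDA-MB-231 at -3.55 and in PC3 at -3.79 and -3.88 only, and MDA-MB-231 was at least 7.75-fold above SW1990. KRT37, another type I hair keratin, was detected in PC3 only, at -4.37 and -4.04, at least 4.38-fold above the next line.

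Among the keratins of upper epithelial layers, 7 of 14 were detected in at least 1 line, against 53.8% of all genes. KRT10 was at 2.05 in SW1990, the lowest line, and at 3.71 in MDA-MB-231, the highest, while KRT1, its partner in skin, was not detected in any line. KRT80 was at 1.0 in both SW1990 and MDA-MB-231, at 0.26 on both SK-MES-1 arrays, at -1.16 and -1.15 in PANC1, and at -1.29 and -1.37 in PC3. Of the inner root sheath keratins, 2 of 9 were detected, against the same 53.8%. KRT75 was detected in PC3 alone, at -3.46 and -3.66, at least 6.86-fold above the next line, whereas KRT73 was detected in all lines within 1.34-fold.

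The transfected cells, measured in Cy5, gave separate samples of the same lines. For PC3, SK-MES-1 and PANC1 the 2 samples of a line differ in the transfected RNA, and the spread between them enters the test. The F-test of limma over the 5 lines called 22 of 37 keratins (59.5%) at an adjusted p under 0.05, against 50.9% of 26727 genes. A keratin that entered the test only through the line where it was high was favoured to differ, although KRT16, KRT76 and KRT79 entered through 1 line and were not called. The 37 tested are only a part of the family. The line with the highest level was the same in mock and transfected cells for 26 of 31 keratins and for all 18 with a range over 4-fold in mock cells. Both channels of an array share a spot, so they are not independent measurements of a probe.

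KRT6A, KRT6B, KRT6C and KRT5 were well above background in SW1990 alone among transfected cells, as in mock cells, with levels of 1.27, -0.39, -0.98 and -5.01 there. They entered the test only through this 1 array and are counted among the calls without further weight. KRT14 was well above background in SK-MES-1 and MDA-MB-231 as well, and was called at an adjusted p of 0.000215 by limma, with SW1990 highest at -0.51. KRT17 was called at 0.034 with both channels of the si-PIR-3 array at background, and KRT16 was not called, at 0.0683. KRT81 was called at 0.000431, with transfected levels of 6.72 and 6.09 in PC3, 4.13 in SW1990 and 2.27 to 2.71 on the other 5 arrays, and KRT83 at 0.000896. Transfected levels of KRT83 were 3.66 and 2.56 in PC3, 1.25 in SW1990 and -0.53 or below on the other 5 arrays. Both of these hair keratins were named for their range in mock cells, read on the same spots. KRT8 (0.000459), KRT7 (0.00184) and KRT18 (0.00185) were called too, as was KRT86 (0.00195). KRT75 entered the test through PC3 alone, where it was at -3.88 and -2.71. KRT7 again had its lowest transfected levels in PANC1, at 1.03 and 0.87, against 3.83 or more on each of the other arrays. For KRT18 the PANC1 samples, at 5.75 and 6.41, came close to the 6.52 of SW1990.

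The weaker calls depended on the number of arrays. Without the SK-MES-1 miR-144-5p array, KRT10, KRT15, KRT17, KRT19, KRT33A, KRT37, KRT71 and KRT80 were lost. Leaving out the SK-MES-1 miR-144-3p array lost the same keratins. Either step left this line with 1 sample, and the share of all genes called fell too. KRT17 was also lost without either PANC1 array.

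**Figure D3:**
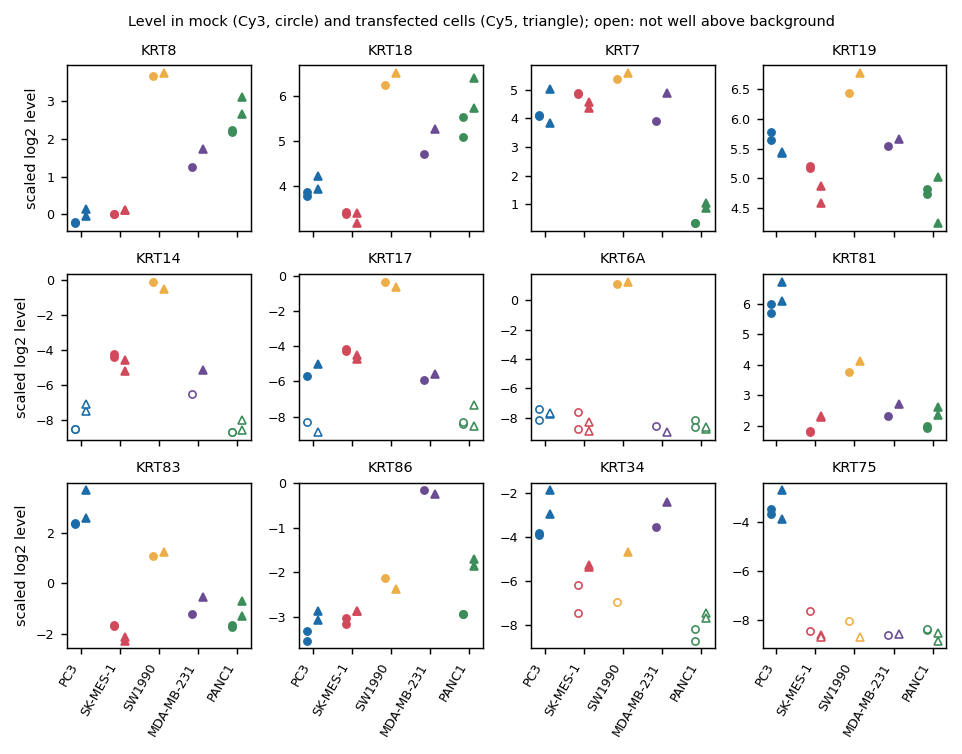
Scaled log2 level (y axis, each panel with its own range) of 12 keratins by cell line, in mock cells (Cy3, circles) and transfected cells (Cy5, triangles) of each array; open symbols are not well above background. SW1990 is highest for KRT8, KRT14, KRT17 and KRT6A in both channels, PC3 for KRT81, KRT83 and KRT75, and PANC1 is lowest for KRT7.

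Genes that work with keratins were counted in the same way. Desmosomes anchor keratin filaments at the membrane, and 13 of 14 genes of desmosomes and their linkers were detected, against 53.8% of all genes, and 11 of the 13 had a range over 4-fold, against 29.9%. DSP (desmoplakin), the link between filament and desmosome, was at 1.5 in MDA-MB-231, at 1.12 in SW1990 and at -3.57 in SK-MES-1, a range of 33.8-fold (limma, adjusted p 0.000324 in transfected cells). PKP1, a plakophilin of stratified epithelia, was at -1.01 in PC3 and at -3.60 in SK-MES-1 and was not well above background in the other lines, SW1990 included. DSG3, the desmoglein of the basal layer, was not detected in any line. PKP2, a plakophilin of simple epithelia and heart, was at 0.74 in SW1990 and at -5.46 in PANC1, a range of 73.7-fold (adjusted p 0.00167).

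Proteins of the cornified envelope, made by stratified epithelia as they mature, were detected for 7 of 10 genes in SW1990 (44.1% of all genes), 3 in MDA-MB-231 and 2 in each of the other lines. The small proline-rich genes SPRR2A, SPRR1B and SPRR3 were at 1.62, 0.46 and 0.23 in SW1990 and were not well above background in any other line, at least 303-fold, 136-fold and 115-fold above MDA-MB-231. Loricrin (LOR) was not detected in any line. Of 13 epithelial transcription factors, 11 were detected in SW1990, 6 each in PC3 and SK-MES-1, 5 in MDA-MB-231 and 3 in PANC1. OVOL1, OVOL2, EHF, KLF5 and GRHL2 were highest in SW1990, where EHF was at 0.22 and KLF5 at 0.12, whereas GRHL1 and GRHL3 were highest in PANC1 and KLF4, ELF3, SOX2 and TP63 in SK-MES-1. GRHL2 was not called in transfected cells (limma, adjusted p 0.395). TP63, which drives KRT5 and KRT14 in basal cells, was not well above background in SW1990. The limma F-test called 10 of 13 desmosome genes, 11 of 12 transcription factors and 8 of 8 cornified envelope genes tested in transfected cells, read against the 50.9% of all genes.

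Among other intermediate filaments, vimentin (VIM), the filament of mesenchymal cells, was bright in every line, from 5.19 in SW1990 to 6.24 in PANC1, and was not called (limma, adjusted p 0.173). NEFL, a neurofilament chain, was at 2.92 in PC3 and was not well above background elsewhere, at least 742-fold above MDA-MB-231. INA, another neuronal filament, was at -0.06 in SK-MES-1 and at -5.31 or below in the other lines.

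The ratios of transfected over mock cells were small for most keratins. In PC3, the comparison of both si-PIR arrays with mock cells called 0 of 25 keratins by limma, and 0 of 22459 genes, at an adjusted p under 0.05. The lowest adjusted p of a keratin was 0.441. At an unadjusted p under 0.05 there were 7 keratins (28%), against 10.4% of all genes. No keratin was above 1 or below -1 on both arrays, against 0.699% and 0.401% of all genes. When normexp ratios were only centred on the median of each array, without dye normalization, 1 keratin (KRT10) and 5828 genes in all were called. A dye effect on these calls was not tested, since the dyes were not swapped. KRT10 had main ratios of -0.14 with si-PIR-2 and 0.02 with si-PIR-3.

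The 7 keratins at an unadjusted p under 0.05 were KRT13, KRT15 and KRT19 on the lower side and KRT39, KRT34, KRT9 and KRT78 on the higher. KRT19 was at -0.65 with si-PIR-2 and -0.77 with si-PIR-3, a mean of -0.71 ± 0.084 (SD, n = 2; limma, adjusted p 0.441). KRT15 was at -1.13 and -0.55 and KRT34 at 1.48 and 0.51. KRT34 also read above mock outside PC3, at 1.78 and 0.41 in SK-MES-1, 1.84 in SW1990 and 0.73 in MDA-MB-231. Of these 3 lines, only MDA-MB-231 had it well above background in mock cells. The other 4 were dim in mock cells, at -5.07 or below.

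Several bright keratins had ratios of opposite sign with the 2 siRNAs. KRT7 was at 0.52 with si-PIR-2 and -0.71 with si-PIR-3, KRT81 at 0.58 and -0.31, and KRT83 at 0.86 and -0.19. KRT80 was at 1.19 and 0.26, and KRT37, dim in mock cells, at 0.17 and -2.52, which became 0.02 and -0.56 by normexp and loess. KRT34 at 1.48 became 0.90 in the same way. Each siRNA had 1 array, so a difference between them has no replicate.

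The miRNA arrays had 1 sample per transfection and no test. The mature sequences of the transfected miRNAs are given from RefSeq (GRCh38.p14), with the seed, bases 2 to 8, in capitals. The labels do not say which member of the miR-130 family was used, so no sequence is given for it.
miR-144-5p (chr17:28861583-28861604, minus strand): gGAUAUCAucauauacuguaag
miR-144-3p (chr17:28861548-28861567, minus strand): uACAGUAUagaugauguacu
miR-204-5p (chr9:70810031-70810052, minus strand): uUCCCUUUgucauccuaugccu
None of these seeds is shared among the 3.

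In SK-MES-1, KRT7, KRT8, KRT18, KRT19 and KRT83 were below mock on both arrays, which share a line whose mock cells were counted as 1 sample. KRT19 was at -1.03 with miR-144-5p and -0.69 with miR-144-3p, KRT7 at -0.94 and -0.67, KRT83 at -1.02 and -0.85, and KRT18 at -0.62 and -0.42. The second KRT83 probe went the other way, at 0.72 and 1.41, and was not well above background in mock cells of this line. KRT15 was above mock, at 0.40 and 0.65. KRT14 and KRT17, both dim in this line, were at -0.71 and -1.20, and at -0.98 and -0.64. On the miR-144-5p array, 3 of 28 keratins were above 1 (4.17% of all genes) and 2 below -1 (1.96%). On the miR-144-3p array, 3 of 30 were above 1 (4.51%) and 1 below -1 (1.11%).

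In SW1990 with miR-204-5p, the basal and wound keratins that set this line apart had ratios from -1.30 to 0.19. KRT16 was at -1.30, KRT5 at -1.24, KRT14 at -0.82, KRT17 at -0.70, KRT6C at -0.34, KRT6A at -0.24 and KRT6B at 0.19. The mock level for which these genes were singled out is the denominator of the ratio. KRT13, a dim keratin of mucosa, was at -1.22. In all, 3 of 30 keratins were below -1 (1.93% of all genes) and 3 above 1 (4.56%). After normexp and loess, KRT14 was at -0.73 and KRT17 at -0.51, while the dim KRT16 and KRT5 were at -0.30 and -0.29.

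In MDA-MB-231 with the same miRNA, 2 of 27 keratins were above 1 (3.36% of all genes) and 0 below -1 (1.88%). KRT7 was at 0.57 there and at -0.22 in SW1990, KRT83 at 0.25 and -0.25, and KRT86 at -0.51 and -0.67. The difference between the 2 lines was not tested.

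In PANC1, KRT18 was at 0.86 with miR-130-3p and -0.18 with miR-130-5p, and its partner KRT8 at 0.49 and 0.03. The second KRT18 probe was at 0.68 and -0.23, and the dimmer KRT8 probe at 0.43 and -0.26. KRT19 was at -0.94 with miR-130-3p and -0.19 with miR-130-5p, and KRT86 at 0.78 and 0.69. KRT80 was at 0.02 with miR-130-3p and -0.80 with miR-130-5p. With miR-130-5p, 2 of 23 keratins were above 1 (7.55% of all genes) and 0 below -1 (6.19%), and with miR-130-3p 0 of 23 lay beyond either limit (6.4% and 1.93%). On the PC3 arrays, 2 of 29 were above 1 with si-PIR-2 (5.82%) and 2 below -1 (2.87%), and with si-PIR-3 1 of 27 was above (3.92%) and 1 below (2.28%).

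KRT19 was a bright keratin that read below mock on each of the 8 arrays. Its ratios were -0.65 and -0.77 in PC3, -1.03 and -0.69 in SK-MES-1, -0.08 in SW1990, -0.32 in MDA-MB-231, and -0.19 and -0.94 in PANC1. By normexp and loess they ran from -0.99 in PANC1 with miR-130-3p to -0.0018 in SW1990. Mock cells of a line were counted as 1 sample. A dye effect of this probe was not tested, since transfected cells were in Cy5 on every array. KRT73, of similar level in all lines, stayed between -0.17 and 0.06, and KRT10 between -0.22 and 0.12.

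**Figure D4:**
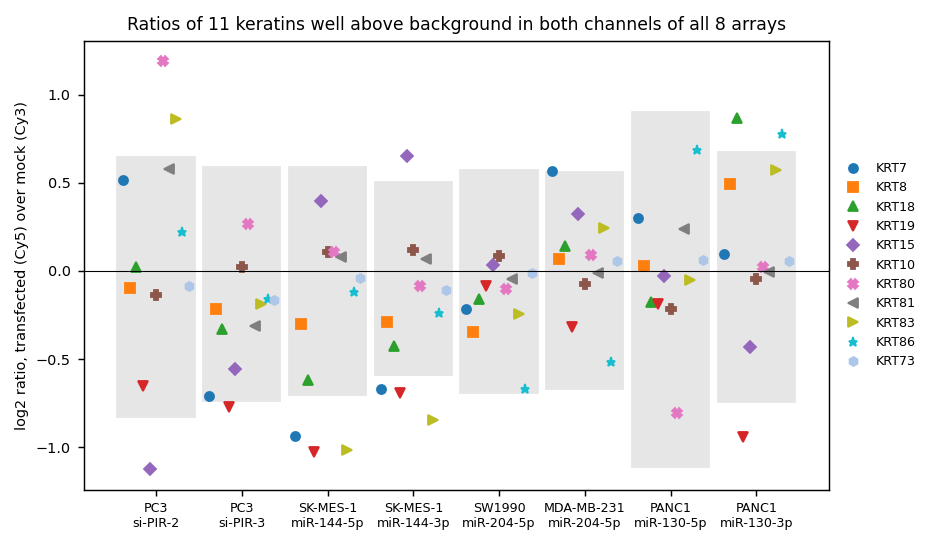
Log2 ratio of transfected (Cy5) over mock cells (Cy3) of 11 keratins that were well above background in both channels of all 8 arrays, 1 point per array. Grey boxes run from the 5th to the 95th percentile of all genes with both channels well above background. KRT19 lies below 0 on every array, KRT18 is highest in PANC1 with miR-130-3p, and KRT7 and KRT81 have opposite signs on the 2 si-PIR arrays.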

How the data were processed

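The authors deposited the scanner output of Agilent Feature Extraction 11.5.1.1, which holds for each spot a Cy3 and a Cy5 intensity after background subtraction and dye normalization, and a log10 ratio with Cy5 as numerator. Their deposited value table repeats these log10 ratios (largest difference 0). Control spots and spots marked as outliers (126 to 173 per array) were left out, spots of a probe were averaged, and the probe with the highest mean log2 signal over 16 channels stood for a gene. Ratios were turned to log2. Levels were scaled to the 75th percentile over probes well above background on all arrays (19878 in Cy3, 23927 in Cy5). The depth of an array is not a count, and the number of arrays limits the precision. Levels across lines in Cy5 and the mean si-PIR ratio against 0 were tested with limma 3.58.1 in R 4.3.3, with Benjamini-Hochberg adjustment over all genes tested, where at least 1 channel was well above background for the ratio. The mock RNA enters as 1 control, whose own spread is left out. P-values measure the spread between these samples. The steps were checked on simulated data.

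The simple epithelial and the basal and wound keratins and the keratins among the 10 with the largest range in mock cells were named by rule, with the 3 largest rises and falls on each array. The family, lists and tests were chosen with earlier results of these data known. Where a line had no signal well above background, the fold is a bound. Probe coordinates follow the array annotation (hg19); exons and untranslated regions were not assigned. Figures were drawn with matplotlib 3.10.9. The alternatives were other scalings and background corrections (normexp with an offset of 50), the mean over probes, other filters and thresholds, and leaving out arrays.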

Additional observations from a re-analysis of the deposited data

How the results depend on the processing

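The mock level of a line rests on 1 or 2 arrays, and signal near background limits many of the ratios. With the looser detection rule of a positive and significant signal, SK-MES-1 had 29 keratins and MDA-MB-231 had 34. At a threshold of 8-fold, 11 keratins differed between lines in mock cells, in place of 18 at 4-fold. Ranges of single genes were recomputed for the keratins named by rule, not for KRT34, KRT37, KRT75 or the partner genes. The F-test of limma called 15 keratins with loess and Aquantile, 16 with normexp and quantile, and 14 to 22 when an array was left out. For si-PIR, median centring without dye normalization called 1 keratin, and a single array left 1 or 2 keratins above 1 and 1 or 2 below -1. Over the 8 arrays, 16 keratin ratios were above 1 and 9 below -1. These became 1 and 0 by normexp and loess, 2 above with both channels well above background, 26 below without a filter, and 7 and 1 at a threshold of 1.5. The other 83 counts recomputed for these comparisons stayed within 1.5 times, and none changed direction. No paired analysis was possible because the groups compared share no 2 replicate numbers: PC3 is the only group with more than 1 numbered sample, and mock and transfected cells of an array enter as a ratio.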

Other observations

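On a few spots the same-line arrays disagreed far beyond the usual spread, in both channels together. KRT17 in PC3 was at -5.68 in mock and -4.99 in transfected cells on the si-PIR-2 array, and at -8.31 and -8.88, not well above background, on the si-PIR-3 array. KRT79, a keratin of sebaceous and upper follicle epithelium, was at -4.49 in mock and -4.11 in transfected cells in PANC1 with miR-130-5p, and at -7.31 and -7.17, not well above background, with miR-130-3p. KRT79 was not well above background in mock cells of any other line, and it was in transfected cells on 2 further arrays, SK-MES-1 miR-144-3p at -4.83 and MDA-MB-231 miR-204-5p at -6.67.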
